A study of Mus musculus with 6 samples.

Results

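The NMDA receptor is encoded by 7 Grin genes in the mouse, *Grin1*, *Grin2a*, *Grin2b*, *Grin2c*, *Grin2d*, *Grin3a* and *Grin3b*, which were taken by gene symbol from the 55357 genes of the deposited counts. All 7 were among the 21876 genes tested. The RNA-seq libraries came from wild type mouse primary neuronal cultures, prepared from the cortex and hippocampus of C57BL/6N embryos at embryonic day 18 and transduced at DIV4 with lentiviral particles, DIV being days in vitro. The shCtrl group, 3 libraries, received a scrambled shRNA, and the sh*Pla2g4e* group, also 3, received an shRNA against *Pla2g4e*, which encodes the cytosolic phospholipase A2 epsilon. All cultures were collected at DIV14, so that both groups carried the virus for the same time and no library was of untransduced cells. The knockdown rested on a single shRNA sequence, named sh2 in the methods. The comparison asks which subunit transcripts differed after the knockdown of *Pla2g4e*.

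NMDA receptors are glutamate-gated channels that pass calcium and open when glutamate and a co-agonist, glycine or D-serine, are both bound and depolarization lifts the magnesium block. A receptor is a tetramer that always holds the GluN1 subunit encoded by *Grin1*, joined by GluN2 subunits, which bind glutamate, or by GluN3 subunits, which bind glycine. In the forebrain GluN2B (*Grin2b*) prevails before birth, GluN2A (*Grin2a*) rises after birth, GluN2D (*Grin2d*) is found in interneurons, GluN2C (*Grin2c*) is best known from cerebellar granule cells and astrocytes, and GluN3A (*Grin3a*) is a subunit of young synapses that lowers calcium flux.

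The knockdown was seen in the target itself. *Pla2g4e* stood at 38.0, 35.1 and 35.4 CPM (the reads of a gene relative to all reads counted, scaled with TMM factors) in shCtrl and at 21.8, 14.1 and 18.7 CPM in sh*Pla2g4e*. Its mean in sh*Pla2g4e* was 50.5% of that in shCtrl, a log2 fold change of −0.99 ± 0.13 (SE, 3 libraries per group, edgeR adjusted p = 1.24e-04). The libraries held 17054717 to 23570180 counted reads.

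The sh2 sequence and the places where its seed finds a match in the Grin transcripts are shown because the shRNA is the designed difference between the groups. The sh2 target lies in the coding sequence of *Pla2g4e* (transcript ENSMUST00000090071, nucleotides 1495 to 1513, coding from 429 to 3056). The guide is its reverse complement, and capitals mark the seed, bases 2 to 8 of the guide, or the matching word GTGGCCA in the sense strand of a transcript.
sh2 target in Pla2g4e: ggaagatggtgGTGGCCAa
sh2 guide: tTGGCCACcaccatcttcc
Grin3a 3′ UTR, nucleotides 4783 to 4789: ttttcagatcaGTGGCCAcctcttttagtc
Grin3a 3′ UTR, nucleotides 6124 to 6130: cattctgagtaGTGGCCAtcagagtctcct
Grin2b 3′ UTR, nucleotides 5378 to 5384: aggcaaccctcGTGGCCAgcaccctttctc
Grin2b 3′ UTR, nucleotides 9782 to 9788: ttctgggcattGTGGCCAtatggtatgttc

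These windows were read from the longest coding transcripts of GENCODE vM21 on GRCm38, ENSMUST00000093859 for *Grin3a* and ENSMUST00000053880 for *Grin2b*. Both *Grin3a* words lay in exon 9 of 9 (minus strand, chr4:49664313-49664319 and chr4:49662972-49662978), and both *Grin2b* words in exon 14 of 14 (minus strand, chr6:135731909-135731915 and chr6:135727505-135727511). Both annotated coding transcripts of *Grin3a* and 2 of the 6 of *Grin2b* held the word in their 3′ UTR. No other Grin gene held it there, and the 3′ UTR of *Grin2a* had none in 9929 bases. Of the 15656 tested genes with a 3′ UTR, 13.4% held the word there, a share that was 26.6% among the 4532 genes with at least 2000 bases of 3′ UTR and 37.5% among the 1244 with at least 4000. The 3′ UTRs of *Grin3a* and *Grin2b* have 3615 and 18865 bases. In coding sequence the word occurred 3 times in *Grin2c*, 3 times in *Grin2d*, 2 times in *Grin2a*, 2 times in *Grin2b*, 1 time in *Grin3a*, 1 time in *Grin3b* and not in *Grin1*, and 25.3% of all tested coding sequences held it. *Grin2a* also held it 1 time in the 5′ UTR. The seed of the scrambled shRNA in shCtrl was not searched here, so that the matches describe sh2 alone and not the contrast of both shRNAs. A match of these letters is a description and its part in any change below was not tested.

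On GRCm39, the build of the counts, the genes lie on separate chromosomes. On the minus strand, *Grin1* (ENSMUSG00000026959) spans chr2:25181193-25209199, *Grin2a* (ENSMUSG00000059003) spans chr16:9385762-9813424, *Grin2b* (ENSMUSG00000030209) spans chr6:135690231-136150509, *Grin2c* (ENSMUSG00000020734) spans chr11:115139995-115158069, *Grin2d* (ENSMUSG00000002771) spans chr7:45481307-45527802 and *Grin3a* (ENSMUSG00000039579) spans chr4:49661611-49845744. *Grin3b* (ENSMUSG00000035745) spans chr10:79806549-79813024 on the plus strand. The subunit genes spanned more than 3 orders of magnitude in reads, with *Grin2b* the highest and *Grin3b* the lowest in CPM. Compared per kilobase of exon, which is the scale for comparing genes, *Grin1* came first in shCtrl with 41.5 ± 5.07 CPM per kb (SD, n = 3), followed by *Grin2b* with 33.0 ± 5.74. *Grin1* was above *Grin2b* within each of the 6 libraries, although the ranges of the genes overlapped across the shCtrl libraries. *Grin2a* (5.29 ± 0.277 CPM per kb), *Grin3a* (4.29 ± 0.426) and *Grin2d* (4.26 ± 0.593) formed a middle group in shCtrl, in which *Grin3a* and *Grin2d* did not differ beyond their spread. This rests on the exon length. With the longest coding transcript, *Grin3a* made up 4.87%, 4.29% and 5.20% of the Grin sum in shCtrl, and *Grin2d* 3.53%, 3.59% and 3.48%. By that length the mean share of *Grin3a*, 4.79%, was also above that of *Grin2a*, 4.42%. *Grin2c* (0.640 ± 0.073) and *Grin3b* (0.111 ± 0.015) came last, each apart from the next. In sh*Pla2g4e* the first places were the same, *Grin1* with 39.6 ± 2.02 and *Grin2b* with 24.7 ± 2.17 CPM per kb. *Grin3a*, at 2.14 ± 0.180, then lay below *Grin2d*, at 3.07 ± 0.141, in 3 of 3 libraries. With lengths from the longest coding transcript that order held in only 2 of the 3.

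**Figure D1:**
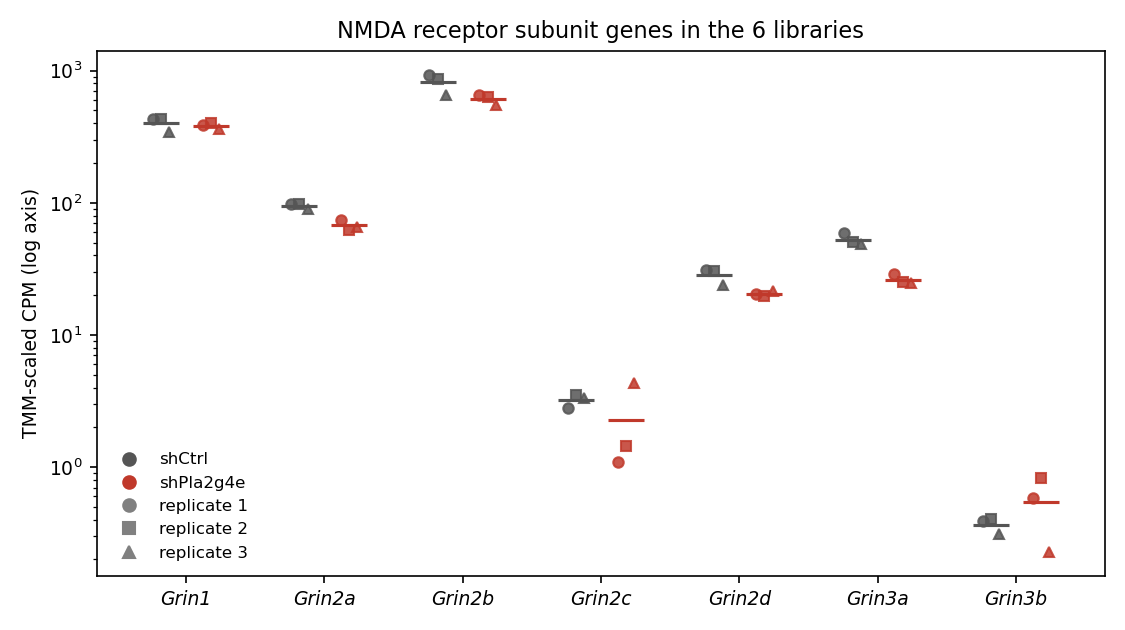
TMM-scaled CPM of the 7 Grin genes (log axis) in 3 shCtrl libraries (grey) and 3 sh*Pla2g4e* libraries (red), with the replicate number given by the symbol and the group mean by a bar. *Grin3a*, *Grin2a*, *Grin2b* and *Grin2d* had no overlap between the groups, *Grin1* overlapped, and *Grin2c* and *Grin3b* scattered in sh*Pla2g4e*.

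*Grin2a* and *Grin3a* were down-regulated in sh*Pla2g4e*, 2 of the 7 subunit genes, against 6.49% of all genes tested that were called in either direction, 4.00% lower and 2.48% higher, at an edgeR adjusted p under 0.01. *Grin3a* was reduced to 49.9% of its shCtrl mean and *Grin2a* to 71.4%. *Grin2b* and *Grin2d* were at 74.8% and 72.1% and missed that threshold in this fit, which had no pairing of libraries. *Grin1* was at 95.5%, and *Grin2c* and *Grin3b*, the scarcest members, were not called. The same-numbered libraries of both groups deviated together, and with that pairing in the fit (replicate block) *Grin2b* and *Grin2d* were called as well, so that 4 of the 7 genes were lower, against 15.5% of all genes. The same 4 genes had no overlap in CPM between the groups, which held for 30.0% of all genes. DESeq2 also called these 4, against 8.66% of all genes, a share whose base includes 5090 genes without a DESeq2 adjusted p. The median log2 fold change of the 7 genes was −0.47, and that of all genes tested was 0.03, with 6 of the 7 below 0. Nothing in the labels says that replicates came from separate cultures, so that the p-values measure the spread between these libraries. In bulk RNA, fewer cells of a type and less RNA per cell cannot be told apart.

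*Grin1* encodes GluN1, the subunit without which no NMDA receptor forms. It stood at 433, 429 and 346 CPM in shCtrl and at 391, 399 and 362 CPM in sh*Pla2g4e*. The sh*Pla2g4e* libraries lay inside the range of the shCtrl libraries. The log2 fold change was −0.07 ± 0.093 (SE), with a 95% interval from −0.26 to 0.13 and an edgeR adjusted p of 0.723, which leaves room for a fall to that lower bound. It was −0.17 without shCtrl replicate 3 and −0.01 without shCtrl replicate 1, and was not called in either case. With library size alone in place of TMM scaling its sign turned, at 0.01. *Grin1* overlaps *Grin1os* on the other strand over 13.5% of its exon bases, and the counting was run without strand.

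*Grin2b*, the Grin2 gene with the highest transcript level in these cultures, encodes GluN2B, which has a large cytoplasmic tail that binds CaMKII. It stood at 934, 866 and 660 CPM in shCtrl and at 656, 630 and 552 CPM in sh*Pla2g4e*. Each sh*Pla2g4e* library was below each shCtrl library, but the third shCtrl and the first sh*Pla2g4e* library nearly met. Its mean was 819.8 ± 142.6 CPM in shCtrl and 612.9 ± 53.9 CPM in sh*Pla2g4e* (SD, n = 3 each), and the log2 fold change was −0.42 ± 0.112 (SE, 95% interval −0.66 to −0.18, edgeR adjusted p = 0.0210). Within pairs of the same number it was −0.51, −0.46 and −0.26, and with the replicate block the adjusted p was 1.35e-07. Without shCtrl replicate 3, whose *Grin2b* was 73.3% of the mean of the other two shCtrl libraries, the adjusted p was 7.35e-04, whereas leaving out any other library gave 0.0350 to 0.117, with 0.117 without shCtrl replicate 2. Over all settings tried the change ran from −0.55 to −0.32.

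*Grin2a* encodes GluN2A, whose receptors close faster than those with GluN2B. Its levels were 97.5, 98.1 and 89.2 CPM in shCtrl and 74.7, 62.6 and 65.9 CPM in sh*Pla2g4e*. The groups did not overlap, and the lowest shCtrl library was well above the highest sh*Pla2g4e* library. The log2 fold change was −0.49 ± 0.087 (SE, 95% interval −0.67 to −0.30, edgeR adjusted p = 0.00142). The call was lost when shCtrl replicate 2 was left out, with an adjusted p of 0.0142 and a change in the same direction. Of the 50-base stretches of the *Grin2a* transcript, 14.3% also occur in other genes, *Gm7328* and *Aoc2*, so that reads of those stretches may be missing from both groups.

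*Grin2d*, which encodes GluN2D, a subunit with slow closing and weak magnesium block, stood at 30.9, 30.4 and 23.8 CPM in shCtrl and 20.3, 19.6 and 21.4 CPM in sh*Pla2g4e*. The sh*Pla2g4e* libraries lay close together below all of shCtrl, and the third pair was closest. The log2 fold change was −0.47 ± 0.116 (SE, 95% interval −0.72 to −0.23), with an edgeR adjusted p of 0.0131, and of 2.49e-04 with the replicate block. A robust edgeR fit without the block gave 0.00817. Without shCtrl replicate 3 the adjusted p was 0.00336, whereas leaving out any other library gave 0.0104 to 0.0804. *Grin2d* shares 9.66% of its exon bases with *Gm45441*.

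*Grin2c*, which encodes GluN2C, was low and uneven. Its levels were 2.81, 3.52 and 3.33 CPM in shCtrl, from 58, 70 and 75 reads, and 1.09, 1.43 and 4.34 CPM in sh*Pla2g4e*, from 26, 31 and 76 reads. The third sh*Pla2g4e* library was above every shCtrl library and the other two were below, so that the group had a coefficient of variation of 78.1%, against 15.0% from counting error alone. The log2 fold change was −0.53 ± 0.392 (SE, 95% interval −1.36 to 0.30, edgeR adjusted p = 0.449). Without sh*Pla2g4e* replicate 3 it was −1.35, with an adjusted p of 0.00627, whereas it was −0.18 (adjusted p = 0.838) without sh*Pla2g4e* replicate 1 and −0.29 (adjusted p = 0.756) without sh*Pla2g4e* replicate 2. The 8 astrocyte markers, summed, stood at 2826, 3188 and 3630 CPM in shCtrl and at 2074, 1899 and 3082 CPM in sh*Pla2g4e*, where the third library was likewise the highest. The part of astrocytes in the *Grin2c* values was not tested.

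*Grin3a*, which encodes GluN3A, showed the widest separation among the 7 genes. It stood at 58.7, 50.2 and 49.1 CPM in shCtrl and at 28.8, 25.2 and 24.9 CPM in sh*Pla2g4e*. The gap between the groups was wider than the whole range within either. The log2 fold change was −1.00 ± 0.10 (SE, 95% interval −1.21 to −0.79, edgeR adjusted p = 9.16e-06), and the 3 pairs gave −1.03, −1.00 and −0.98. *Grin3a* was called under each of the 15 alternatives, from −1.07 to −0.92. None of its exon bases overlap another gene and none of its 50-base stretches occur in one. Its 3′ UTR holds the 2 GTGGCCA words printed above.

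*Grin3b*, which encodes GluN3B, the subunit of motor neurons, was at the limit of detection. It had 8, 8 and 7 reads in shCtrl and 14, 18 and 4 reads in sh*Pla2g4e*. The sh*Pla2g4e* libraries lay on both sides of shCtrl, and the log2 fold change of 0.60 had a 95% interval from −0.73 to 1.92 (edgeR adjusted p = 0.617). That value was 0.18 without sh*Pla2g4e* replicate 2 and 0.94 without sh*Pla2g4e* replicate 3. A difference was not detectable at this depth. Its exons overlap *Tmem259* over 32.1% of their bases.

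*Grin1* took a larger share of the Grin transcripts in sh*Pla2g4e*, given as a description without a test. Its own mean CPM did not rise, at 95.5% of shCtrl. The sum of the 7 genes was 97.7, 94.0 and 75.5 CPM per kb in shCtrl and 76.7, 75.6 and 69.4 in sh*Pla2g4e*, and the groups overlapped. Over CPM per kb, *Grin1* made up 46.6 ± 0.845% of the sum of the 7 genes in shCtrl (SD, n = 3) and 53.6 ± 0.970% in sh*Pla2g4e*, and the groups were apart in every library. The share of *Grin2b* was 36.9 ± 1.65% against 33.4 ± 1.22%, that of *Grin2a* 5.99 ± 0.534% against 5.12 ± 0.437%, and that of *Grin3a* 4.85 ± 0.477% against 2.90 ± 0.176%. The *Grin2d* share was 4.78 ± 0.068% against 4.17 ± 0.408%. The shares rest on the exon length used, and with the longest coding transcript *Grin1* made up 63.7% in shCtrl and 70.3% in sh*Pla2g4e*. The sum of the 4 Grin2 genes over *Grin1*, a measure added after the values were seen and given without a test, was 1.081, 1.032 and 1.004 in shCtrl and 0.840, 0.779 and 0.804 in sh*Pla2g4e*, or 77.7% of shCtrl.

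**Figure D2:**
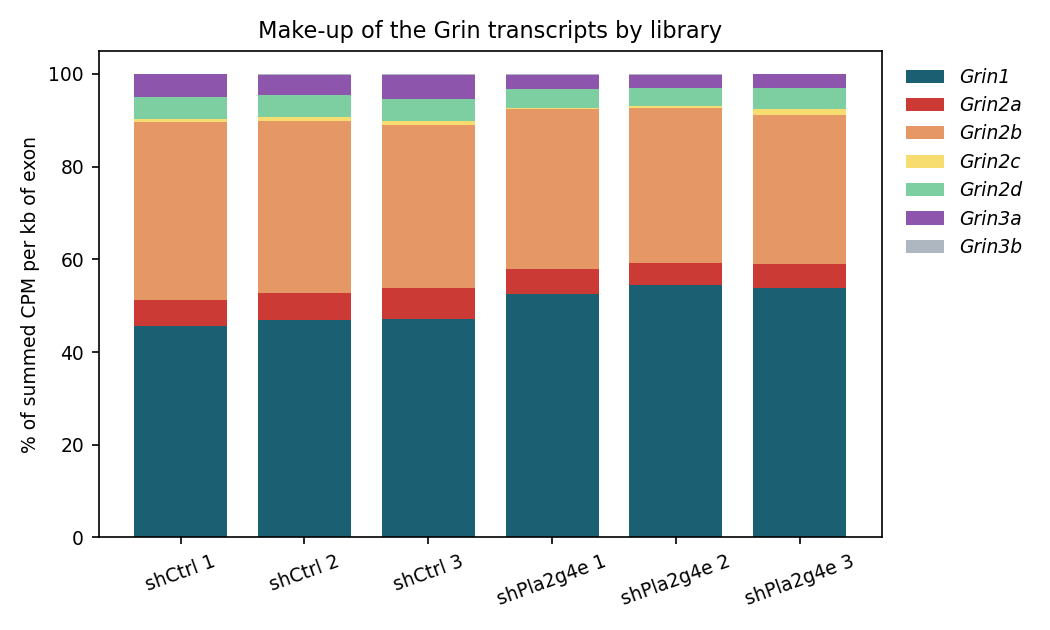
Each bar is 1 library and shows the share of each Grin gene in the summed CPM per kb of exon, in percent. The *Grin1* block was 45.6% to 47.2% in the shCtrl libraries and 52.6% to 54.5% in the sh*Pla2g4e* libraries.

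Within the GluN2 genes the shares of *Grin2b* and *Grin2a* overlapped between the groups. *Grin2b* made up 76.2 ± 1.86% of the 4 Grin2 genes per kb in shCtrl and 77.1 ± 2.61% in sh*Pla2g4e*, and *Grin2a* 12.4 ± 1.36% and 11.8 ± 0.816%. The ratio of *Grin2a* to *Grin2b* per kb, which rises as forebrain synapses mature, was 0.145, 0.157 and 0.187 in shCtrl and 0.158, 0.137 and 0.165 in sh*Pla2g4e*. The groups overlapped, and the difference on the log2 scale was −0.08 ± 0.136 (SE), with an exact two-sided permutation p of 0.7, in a design whose smallest p is 0.1. Within pairs of the same number it was 0.13, −0.19 and −0.18. Without shCtrl replicate 3, which had the highest ratio, the difference was 0.02.

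The ratio of *Grin3a* to *Grin1* per kb was lower in every sh*Pla2g4e* library than in any of shCtrl. It was 0.107, 0.0925 and 0.112 in shCtrl and 0.0583, 0.0498 and 0.0542 in sh*Pla2g4e*. The difference on the log2 scale was −0.94 ± 0.107 (SE), or 0.521-fold, and the exact two-sided permutation p was 0.1, which is the smallest that 3 against 3 libraries allow, and 0.2 adjusted over both ratios tested. The SD of this ratio between replicates on the log2 scale, 0.146 in shCtrl and 0.114 in sh*Pla2g4e*, was above the SD from counting alone, 0.044 to 0.072. Within pairs of the same number the difference was −0.88, −0.89 and −1.05.

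**Figure D3:**
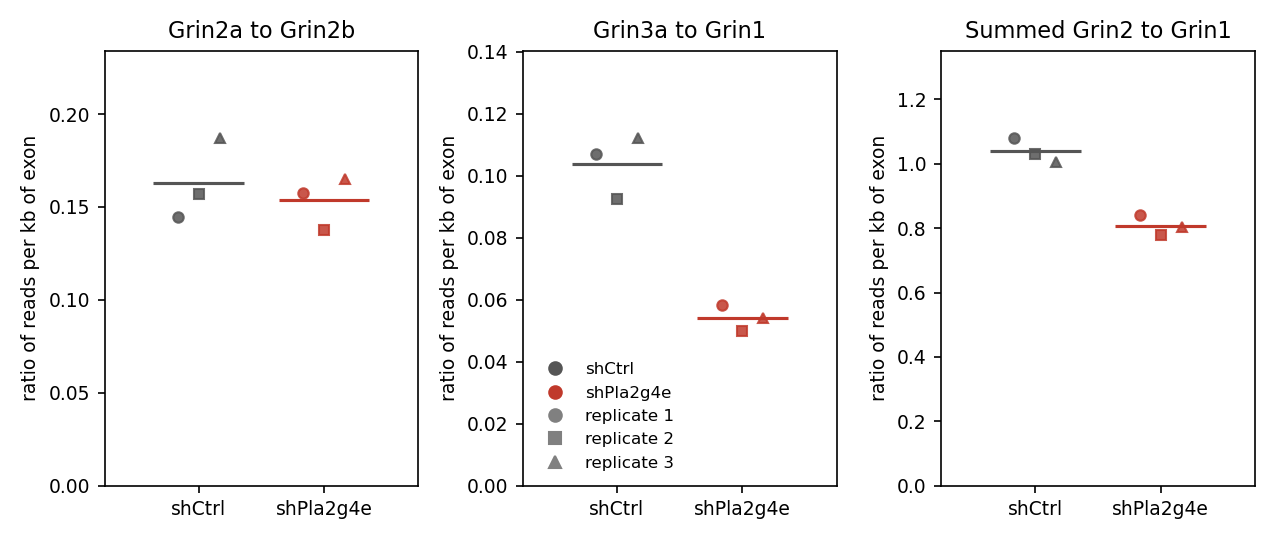
Ratios of CPM per kb of exon in each library (axes from 0), with group means as bars and replicate numbers as symbols. *Grin2a* to *Grin2b* overlapped between the groups, while *Grin3a* to *Grin1* (0.0925 to 0.112 against 0.0498 to 0.0583) and the summed Grin2 genes to *Grin1* did not.

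The spread among replicates was not shared equally by the subunits. In shCtrl the third library had less of every abundant member than the mean of the other two, at 80.2% for *Grin1*, 73.3% for *Grin2b*, 77.7% for *Grin2d*, 91.2% for *Grin2a* and 90.2% for *Grin3a*. In sh*Pla2g4e* the third library was at 91.6% for *Grin1* and 85.9% for *Grin2b* but at 107.4% for *Grin2d*. The coefficient of variation of *Grin2b* in shCtrl, 17.4%, was far above the 0.765% of counting error.

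Other glutamate receptors were read beside the Grin genes. None of the 4 AMPA receptor genes was called by edgeR, by limma after voom or by DESeq2, and none had an unadjusted edgeR p under 0.05. *Gria2*, the subunit that makes AMPA receptors impermeable to calcium, stood at 1029, 971 and 1089 CPM in shCtrl and at 1140, 975 and 1144 CPM in sh*Pla2g4e*. *Gria1* had a log2 fold change of −0.16, with an interval from −0.32 to 0.01, and the median of the 4 genes was −0.06. Of 7 kainate and delta receptor genes, 1 was down-regulated (14.3%, against 6.49% of all genes called). It was the kainate receptor gene *Grik3* (−0.52, edgeR adjusted p = 5.18e-04), which stood at 122.3, 130.3 and 115.2 CPM against 90.5, 85.4 and 80.7. With the replicate block, which called 15.5% of all genes, *Grik1* was called too (−0.41, adjusted p = 0.0144 without the block and 3.87e-04 with it). Of 8 metabotropic receptor genes, 7 were tested and 3 were down-regulated, against 6.49% of all genes called. These were *Grm2* (−1.12), *Grm3* (−1.22) and *Grm4* (−0.76), which code for inhibitory receptors that lower cyclic AMP. With the replicate block *Grm7*, of the same class, was called too, against 15.5% of all genes (−0.34, adjusted p = 2.44e-04, and 0.0473 without the block). *Grm8*, also of this class, was not called with or without the block (−0.17, edgeR adjusted p = 0.724 without it).

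**Figure D4:**
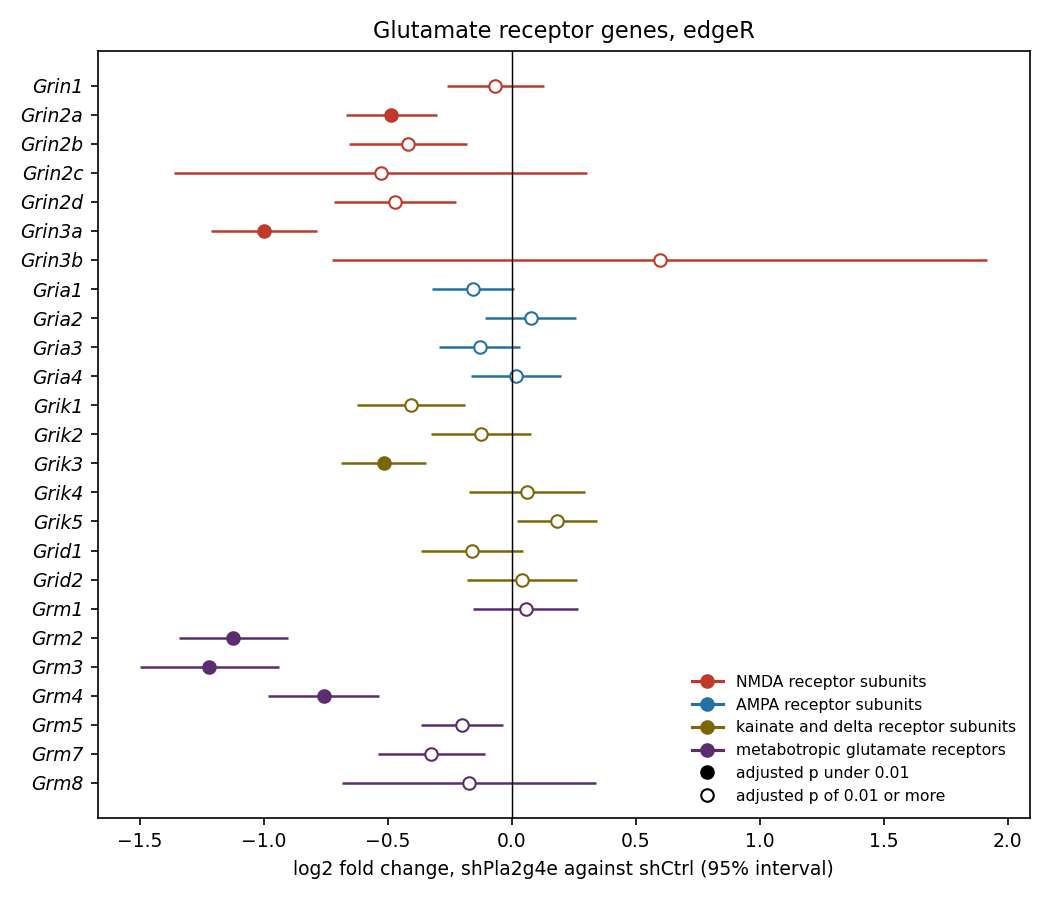
Log2 fold change of sh*Pla2g4e* against shCtrl (points) and its 95% interval (lines) for the glutamate receptor genes tested, by family. Filled points had an edgeR adjusted p under 0.01. *Grin2a*, *Grin3a*, *Grik3*, *Grm2*, *Grm3* and *Grm4* were called, all lower, and the AMPA receptor genes lay close to 0.

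Proteins that hold, move or modify the receptor were taken from a list of 48 partner genes. Of these, 32 had a lower and 16 a higher fitted level in sh*Pla2g4e*, 6 (12.5%) were down-regulated and none was up-regulated at an edgeR adjusted p under 0.01, against 6.49% of all genes, and 20 of the 48 had an unadjusted p under 0.05, against 25.7% of all genes. The median log2 fold change was −0.14. A mean log2 CPM of at least 3 was reached by 45 of the 48, by 5 of the 7 subunit genes and by 10908 of all 21876 genes tested. The shares over all genes thus include many scarcer genes, and the share called at that level was not computed. DESeq2 called 14 of the 48, of which 2 were higher, against 8.66% of all genes, and limma after voom called 6, against 6.53%. With the replicate block 15 were lower and 3 higher, against 15.5% of all genes called. The 3 called higher under the block, named after their values were seen, were *Rasgrf1*, *Actn2* and *Shmt2*.

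The PSD-95 family anchors GluN2 tails at the synapse, and none of its 4 genes was called by edgeR without the block or by DESeq2, with 1 at an unadjusted p under 0.05. *Dlg4*, which encodes PSD-95 itself, stood at 932, 852 and 810 CPM in shCtrl and at 797, 673 and 789 CPM in sh*Pla2g4e*. The groups were apart by a small margin, and the log2 fold change of −0.20 had an edgeR adjusted p of 0.167, or 0.00928 with the replicate block. Among 11 genes of transport and endocytosis, 1 was called (9.09%, against 6.49% of all genes), and the replicate block and DESeq2 each called 3, *Apba1*, *Pacsin1* and *Git1*, against 15.5% and 8.66% of all genes. *Git1*, an adaptor of synaptic actin and endocytosis, was at 255, 241 and 247 CPM in shCtrl and at 183, 161 and 191 CPM in sh*Pla2g4e*, with a log2 fold change of −0.48 (edgeR adjusted p = 0.00110).

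Kinases and phosphatases of the receptor had 3 of 10 genes called, all lower, against 6.49% of all genes, and 8 with an unadjusted p under 0.05, against 25.7%. The replicate block called 7 of the 10, all lower, against 15.5% of all genes, and DESeq2 called 6, against 8.66%. *Src*, a tyrosine kinase that enhances NMDA receptor currents, stood at 96.3, 103.7 and 87.1 CPM in shCtrl and at 63.0, 63.4 and 67.1 CPM in sh*Pla2g4e* (log2 fold change −0.57, edgeR adjusted p = 3.25e-04). *Ptk2b*, the calcium-activated kinase Pyk2 that acts upstream of *Src*, was at 151.8, 128.0 and 136.2 CPM against 98.1, 92.5 and 104.9 (−0.49, adjusted p = 0.00114). Both kinases were lower in each sh*Pla2g4e* library than in each shCtrl library. *Camk2b*, the beta subunit of CaMKII, fell from 854.8, 840.9 and 796.2 CPM to 653.5, 599.3 and 656.5 CPM (−0.38, adjusted p = 0.00380). The *Camk2b* call was lost when shCtrl replicate 1, shCtrl replicate 2, sh*Pla2g4e* replicate 1 or sh*Pla2g4e* replicate 2 was left out.

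Among 9 genes of Ras, nitric oxide and calmodulin signalling, 2 were called, both lower, against 6.49% of all genes. The replicate block called 2 lower and 2 higher, against 15.5% of all genes, and DESeq2 called 4, against 8.66%. *Rasgrf2*, a calcium-dependent Ras activator downstream of NMDA receptors, stood at 168.0, 148.1 and 129.2 CPM in shCtrl and at 88.9, 76.0 and 79.4 CPM in sh*Pla2g4e*. That log2 fold change of −0.87 was the largest fall of the 48 genes (edgeR adjusted p = 2.93e-05). Its paralog *Rasgrf1*, which binds GluN2B and is named here after its values were seen, had the opposite sign, 0.35, with an adjusted p of 0.0264, and of 2.84e-05 with the replicate block. *Calm3*, one of the calmodulin genes, fell from 1524, 1478 and 1325 CPM to 1102, 1017 and 1061 CPM (−0.44, adjusted p = 0.00180), a call that was lost without shCtrl replicate 2. None of the 4 surface partners and none of the 10 genes that make or carry glycine and D-serine was called by edgeR without the replicate block, with 1 and 2 at an unadjusted p under 0.05, and DESeq2 called 1 and 0. With the block *Ephb2* (−0.44, adjusted p = 3.04e-05), *Slc1a4* (−0.29, adjusted p = 6.96e-04) and *Shmt2* (0.32, adjusted p = 0.00135) were called.

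**Figure D5:**
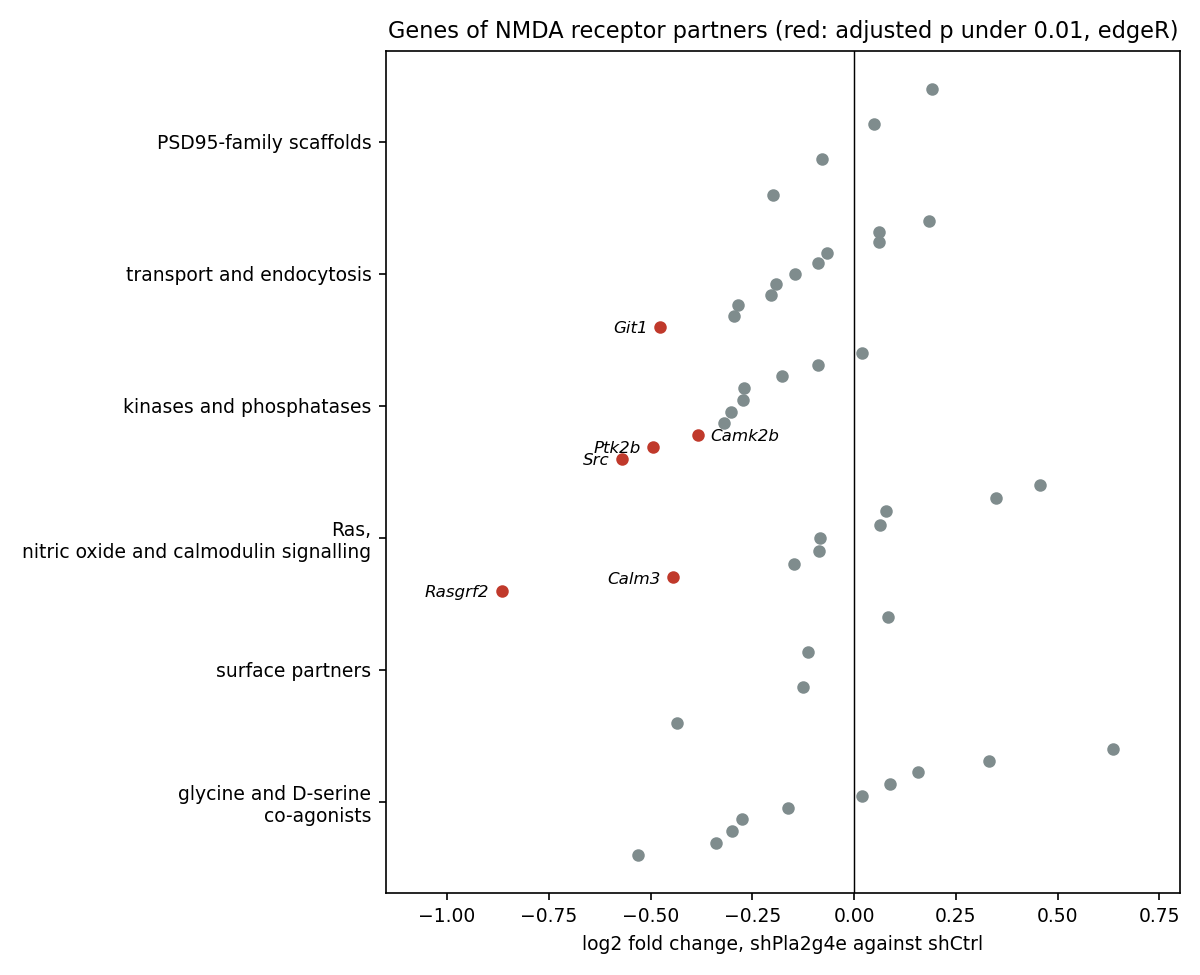
Log2 fold change of sh*Pla2g4e* against shCtrl for the 48 partner genes, by group. Red points with names had an edgeR adjusted p under 0.01, all of them below 0 and *Rasgrf2* lowest at −0.87.

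The genes whose levels most resembled those of the called subunits over the 6 libraries were listed by Pearson's r of log2 CPM, as a description. For *Grin3a* they were *Cnnm4* (r = 0.999), *Apbb2* (0.998) and *Garnl3* (0.998), and for *Grin2a* they were *Ryr2* (0.998), *Slco3a1* (0.998) and *Fchsd2* (0.997). Of 10907 genes, 649 had an r over 0.95 with *Grin3a* and 525 with *Grin2a*, and all points share the 6 libraries and their group difference. *Apbb2*, which binds the amyloid precursor protein, stood at 55.6, 48.8 and 47.4 CPM in shCtrl and at 28.6, 27.0 and 26.7 CPM in sh*Pla2g4e*.

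Markers of cell types were read beside the subunit genes, and some differed between the groups, in both directions. The label neurons was met by the 8 pan-neuronal markers, whose sum was 5045 to 5493 CPM in shCtrl and 4612 to 5091 CPM in sh*Pla2g4e*. Of the 8, 2 were called lower, *Map2* (−0.45) and *Rbfox3* (−0.41), and 1 higher, *Nefl* (0.48). The summed markers of glutamatergic neurons were 1299, 1197 and 1004 CPM in shCtrl and 738, 727 and 669 CPM in sh*Pla2g4e*. Without *Slc17a7* the other 5 summed to 457, 453 and 356 CPM in shCtrl and to 426, 437 and 372 CPM in sh*Pla2g4e*, and the groups overlapped. Of these 6 markers 2 were called lower and 1 higher, namely *Slc17a7* (−1.31) and *Neurod6* (−0.47) against *Slc17a6* (0.91). The 10 markers of GABAergic neurons summed to 832 to 912 CPM and 802 to 901 CPM, with *Lhx6* (−0.93) and *Slc32a1* (−0.64) lower and *Sst* and *Npy* higher. Of the 8 astrocyte markers 3 were called lower, *Aqp4* (−1.19), *Gja1* (−0.66) and *Slc1a2* (−0.50), while *S100b* (1.11, adjusted p = 0.0211) and *Aldh1l1* (0.19, adjusted p = 0.389) had the opposite sign. With the replicate block 6 astrocyte markers were lower and *S100b* was higher (adjusted p = 9.63e-04). Oligodendrocyte lineage markers summed to 522 to 592 CPM and 530 to 658 CPM, and none of the 8 was called by edgeR without the block, with 1 at an unadjusted p under 0.05 and none called by DESeq2. Microglial markers summed to 3.07 to 7.73 CPM and 2.59 to 4.02 CPM, endothelial and mural markers to 19.9 to 26.8 CPM and 20.2 to 29.0 CPM with *Cldn5* at 0 reads in all libraries, and those of proliferating progenitors to 127 to 158 CPM and 109 to 148 CPM. Of 4 progenitor markers, *Top2a* was called, lower. None of the 5 microglial and 4 endothelial and mural markers tested was called by edgeR without the block or by DESeq2, with 3 and 1 at an unadjusted p under 0.05. With the replicate block edgeR also called *Olig2* (−0.37) and *Mki67* (−1.14) lower and *Kdr* (1.21) higher, and the markers called lower and higher were 2 and 2 of the 8 pan-neuronal, 3 and 2 of the 6 glutamatergic and 3 and 3 of the 10 GABAergic ones. Over all genes, 6.49% were called without the block and 15.5% with it. The part of cell composition in the Grin values was not tested.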

How the data were processed

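Reads of 6 libraries (poly(A) RNA, stranded kit) were aligned with STAR 2.7.0d and counted on exons with featureCounts 1.6.0, and the authors deposited the read counts as they came, with no scaling. The files carry GENCODE vM28 and GRCm39, the study's methods name mm10 and GENCODE M18. The counting command shows no strand, read-pair or multi-mapping option, so that reads of either strand count for a gene, mates may count singly, and reads in several places or in overlapping genes are lost. Symbols came from GENCODE vM21 (GRCm38) through gene identifiers, which matched for 52081 of 55357 genes. The sh2 target was read from the study's supplementary list of shRNA sequences and matched to vM21 transcripts.

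Groups were taken from the labels. Total counts were 17054717 to 23570180 per library. edgeR 4.0.16 (TMM, quasi-likelihood test) in R 4.3.3 was run over the 21876 genes that reached 6 reads in any library, with Benjamini-Hochberg adjustment and the study's threshold of 0.01. Standard errors were derived from the F statistic. CPM per kb used the exon length in the deposited files. Ratios were compared with an exact two-sided permutation test over libraries. limma 3.58.1 after voom (the study's test), DESeq2 1.42.0, other scalings and filters, a threshold of 0.05, a robust fit, the replicate number as a block and the omission of single libraries were alternatives. The scripts were tested on simulated data.

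Over 10908 genes, same-numbered libraries had correlations of 0.392, 0.189 and 0.461 in their deviations from the mean of their group. Libraries with different numbers had −0.393 to 0.108. Deviations from a group mean sum to 0, which pulls the second set below 0 when the first is above it. The labels' replicate numbers were treated as pairs on this ground, which comes from these same data. The labels do not say that they are pairs. No 2 libraries differed by less than sampling noise. The members and gene lists were chosen with earlier results of these data known. Named were all members, up to 3 called partner genes per group with the smallest p, *Dlg4*, the 3 genes most like each called member among those averaging a log2 CPM of 3 or more, and *Pla2g4e*. Other glutamate receptor, partner and marker genes were named after their values were seen.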

Additional observations from a re-analysis of the deposited data

How the results depend on the processing

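Of the 7 subunit genes, 2 were called by edgeR and 4 by DESeq2, with no filter on low counts (2349 of 32161 genes called), with the replicate block and at a threshold of 0.05, and 1 (without shCtrl replicate 2) to 4 (without shCtrl replicate 3) when 1 library was left out. Under every one of these settings with 4 calls the genes were *Grin2a*, *Grin2b*, *Grin2d* and *Grin3a*. The robust fit called 3, *Grin2a*, *Grin2d* and *Grin3a*, and 7 of the 48 partner genes, against 7.14% of all genes. Of the 48 partner genes, 6 were called by edgeR, 14 by DESeq2, 14 with no filter, 18 with the replicate block, 15 at a threshold of 0.05, and 4 to 9 when 1 library was left out. Over all genes 8.66% were called by DESeq2, 7.30% with no filter, 15.5% with the block, 12.9% at a threshold of 0.05 and 3.21% (without shCtrl replicate 2) to 7.46% (without sh*Pla2g4e* replicate 3) with 1 library left out. DESeq2 gave no adjusted p for 5090 of the 21876 genes, so that its share among genes with an adjusted p is above 8.66%. The change of *Grin1* was 0.0107 with library size alone, which moved the split over all genes from 876 lower and 543 higher to 609 lower and 796 higher. The log2 difference in *Grin2a* to *Grin2b* ran from −0.16 to 0.0232 with 1 library left out, and kept its sign with summed reads and with 1 read added. In pairs (replicate block) 1 of 3 differed in sign (0.13, −0.19 and −0.18, exact sign-flip p = 0.5, smallest possible 0.25). That of *Grin3a* to *Grin1* kept its sign under these settings and in 3 of 3 pairs, from −1.02 to −0.88 with 1 library left out. Of 104 fold changes of members under alternatives, 92 kept their direction and their side of the threshold, 10 gained a call, 1 lost it and 1 changed sign. With the length of the longest coding transcript, shares in shCtrl and sh*Pla2g4e* were 63.7% and 70.3% for *Grin1*, 4.42% and 3.62% for *Grin2a*, 23.0% and 19.9% for *Grin2b*, 3.53% and 2.95% for *Grin2d*, 0.453% and 0.376% for *Grin2c*, and 0.0757% and 0.129% for *Grin3b*, because that length is shorter in some genes than in others relative to all exons. The causes of the other shifts were not tested. Depth limits *Grin3b*, with 4 to 18 reads per library.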
